A study of Mus musculus with 15 samples.

Results

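The genes described here encode TSLP, the IL-20 group of cytokines and receptor chains through which epithelial cells read cytokines of this kind. They were taken by an exact match of the gene symbol, and all 10 of the 10 listed symbols (*Tslp*, *Il19*, *Il20*, *Il24*, *Il22ra1*, *Il20ra*, *Il20rb*, *Il10rb*, *Il17ra* and *Il4ra*) were found among the 21110 genes in the files. Expression was measured by RNA-Seq of ear specimens from 15 mice on a C57BL/6 background, with 1 library per mouse. The 4 groups were 4 wild type mice aged 2 weeks, 4 *Socs3* conditional knockout (*Socs3* cKO) mice aged 2 weeks, 3 wild type mice aged 10 weeks and 4 *Socs3* cKO mice aged 10 weeks. In *Socs3* cKO the deletion is keratin 5-specific, so it falls on basal keratinocytes and their descendants, and the other cells of the ear keep the gene. The comparison asks how loss of *Socs3* in keratinocytes alters expression at a young and at an adult age.

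TSLP is an epithelial cytokine that acts on dendritic cells, mast cells and lymphocytes and favours type 2 responses. IL-19, IL-20 and IL-24 are made by keratinocytes and myeloid cells and signal through pairs of chains, either IL-20RA with IL-20RB or, for IL-20 and IL-24, IL-22RA1 with IL-20RB, while IL-22 itself uses IL-22RA1 with IL-10RB. These receptors, like the IL-4 receptor chain IL-4RA, signal through JAK kinases and STAT proteins, whereas IL-17RA signals through the adaptor ACT1. SOCS3 is an inhibitor of JAK and STAT signalling that STAT3 itself induces.

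The deposited values are FPKM, fragments per kilobase of transcript scaled to the mapped reads of each library, which take account of gene length, so levels of different genes can be compared. From the smallest steps between values, the depth was estimated at 12700000 to 18200000 mapped reads per mouse, and 68.0% to 73.8% of the low values lay within 0.1 of a whole read, where chance would give 20%. The sample labels name keratinocytes as the source, but the ear libraries also held markers of other cells in every group: the summed FPKM per mouse ranged from 6190 to 12400 for 7 keratinocyte markers, from 3310 to 10100 for 6 fibroblast markers, from 230 to 1590 for 5 skeletal muscle markers and from 61.9 to 205 for 6 macrophage markers. Hair follicle markers (7 genes) summed to 1560 to 2340 in 2-week wild type mice and to 5.96 to 54.8 in the other 3 groups. *Socs3* itself, whose FPKM covers the whole gene and all cells of the ear, did not check the labels: at 2 weeks the *Socs3* cKO mice had 1.25, 9.32, 12.6 and 3.51 FPKM against 9.71 to 10.3 for the wild type, and at 10 weeks they had 29.8 to 47.7 against 2.02 to 4.81. The groups are therefore named as labelled. Each group has its own range of library numbers in the labels, so library batch and group cannot be told apart. In GC content 1 library stood apart, *Socs3* cKO replicate 1 at 2 weeks. In it the 20% of genes with the lowest GC content were shifted by 2.32 on the log2 scale relative to the 20% with the highest. This shift was 0.19 to 0.31 in the other 3 mice of its group, -0.79 to -0.12 among wild type mice and 0.14 to 0.40 among 10-week *Socs3* cKO mice. For the 10 genes and for the counts of called list genes, results at 2 weeks are given with and without this mouse. Leaving it out does not remove the shift between genotypes at that age, as the 2-week wild type mice had -0.79 to -0.71. For list genes no value with the GC trend removed is given. The 3 wild type libraries at 10 weeks differed from the rest in their low values. They had 2087, 3176 and 1414 genes at 0 FPKM, where the other libraries had 4044 to 4423. The part of this in low wild type values and read sums at 10 weeks was not tested. The labels do not say whether mice shared a litter, and p-values measure the spread between these mice.

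In all 4 groups *Il20rb* had the highest level of the 10 genes, followed by *Il10rb*, and the IL-20 group cytokines were the lowest. Mean *Il20rb* at 2 weeks was 51.5 ± 1.53 (SD, n = 4) FPKM for the wild type against 57.1 ± 22.7 (SD, n = 4) for *Socs3* cKO, and at 10 weeks 36.2 ± 9.77 (SD, n = 3) against 48.4 ± 12.6 (SD, n = 4). Its range over mice did not overlap that of *Il10rb*, which lay between 10.0 and 22.8 FPKM, in any group. In the wild type at 2 weeks the order then ran *Il17ra*, *Il4ra*, *Il22ra1*, *Tslp*, *Il20ra*, *Il20*, *Il19* and *Il24*, and the neighbours whose ranges overlapped were *Il22ra1* with *Tslp*, *Tslp* with *Il20ra*, *Il20* with *Il19* and *Il19* with *Il24*. In *Socs3* cKO at 10 weeks the order ran *Il20rb*, *Il10rb*, *Il4ra*, *Il17ra*, *Tslp*, *Il20ra*, *Il22ra1*, *Il24*, *Il19* and *Il20*, so that *Il4ra* stood next to *Il10rb* and *Il24* stood above *Il19* and *Il20*, although only *Il20rb* and *Il20* were separated from their neighbours by a gap.

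**Figure D1:**
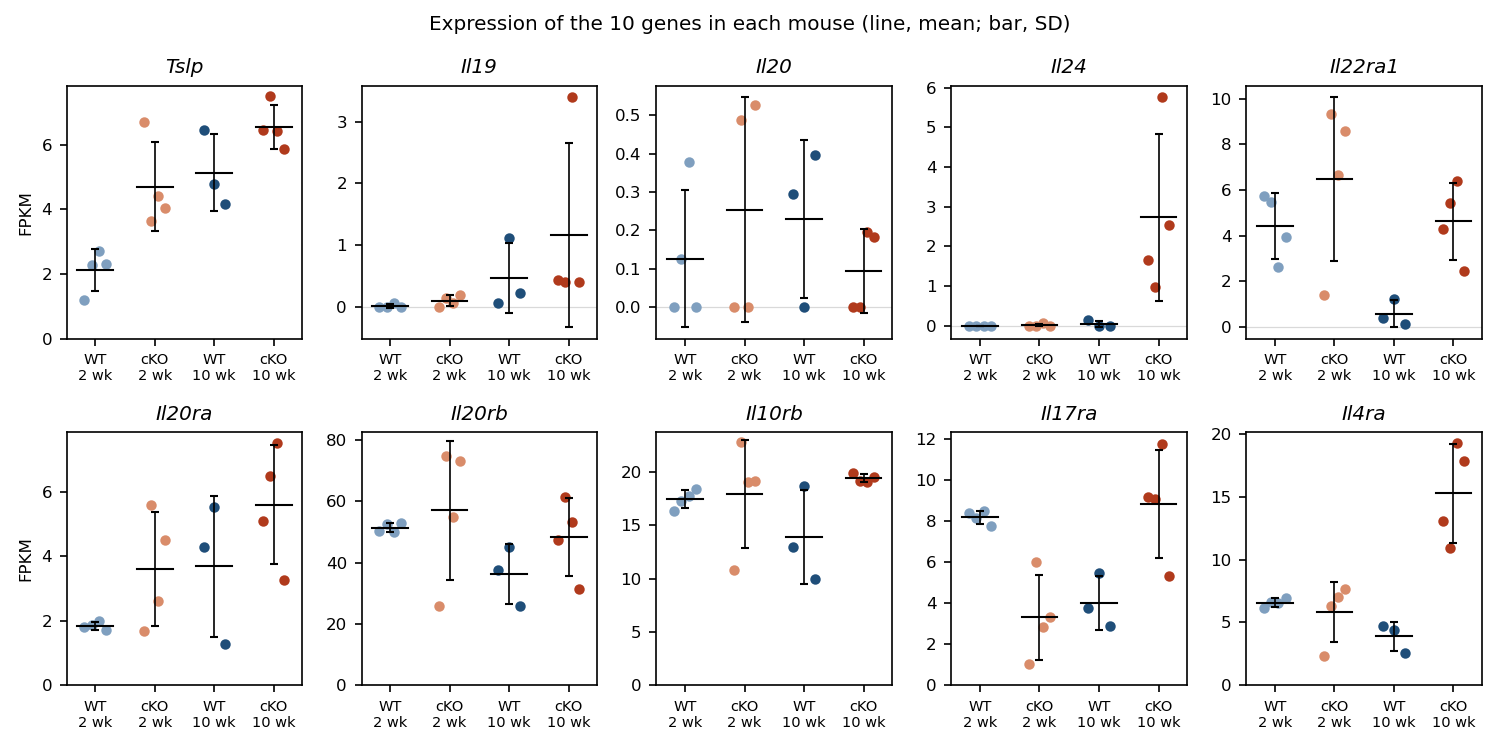
FPKM of each of the 10 genes in every mouse, by genotype and age (points, mice; line, mean; bar, SD; n = 4, and n = 3 for the wild type at 10 weeks). *Il24* lies at 0.98 to 5.75 in *Socs3* cKO at 10 weeks and at 0.133 or less in every other mouse, and *Il22ra1* is lowest in the wild type at 10 weeks (0.119 to 1.24).

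At 10 weeks, the cytokine gene *Il24* and the receptor genes *Il22ra1* and *Il4ra* were up-regulated in *Socs3* cKO. A gene was tested when its FPKM was at least 1 in at least 3 of the mice compared, and it was called when limma gave an adjusted p below 0.01 with an absolute log2(FC) of at least 1 on the log2(FPKM + 0.1) scale. Of the 10 genes, 8 were tested and 3 were called, all higher, where 14.9% of all 13105 genes tested were called, 12.5% higher and 2.43% lower. The 8 log2(FC) were all above 0, with a median of 0.93 against 0.31 over all genes tested. *Il24* and *Il22ra1* entered this test only through *Socs3* cKO, with 0 and 1 of the 3 wild type mice at 1 FPKM or more. Among the genes tested *Il24* therefore had to differ, and the filter favoured a difference in *Il22ra1*. The count and median carry that selection. The groups did not overlap for 4 of the 8 (*Il24*, *Il22ra1*, *Il4ra* and *Il10rb*), as for 42.3% of all genes tested. *Il19* and *Il20* were under the filter at both ages.

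At 2 weeks, none of the genes passed the test. Of the 7 tested, 0 were called by limma, with 2 at an unadjusted p below 0.05 (*Tslp* and *Il17ra*), where 14.4% of all 13524 genes tested were called, 7.24% higher and 7.19% lower. Their median log2(FC) was 0.04 against -0.21 over all genes tested. The groups did not overlap for *Tslp*, which was higher, and for *Il17ra*, which was lower, that is for 2 of 7 against 56.1% of all genes tested. Without *Socs3* cKO replicate 1, 6.89% of all 13451 genes tested were called higher and 13.0% lower. Of the 7 genes, 2 were then called, *Il20ra* (log2(FC) 1.10, SE 0.24, adjusted p = 0.00439) and *Il17ra* (-1.07, SE 0.23, adjusted p = 0.00401). Without replicate 2 there was 1, *Il17ra* (-1.88, adjusted p = 0.00479).

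The difference between genotypes itself differed between the ages for *Il24*, *Il17ra* and *Il4ra*. In a fit of all 4 groups, the genotype by age interaction had an adjusted p below 0.01 for these 3 of the 8 genes tested, each in the direction of a larger log2(FC) at 10 weeks, where 25.6% of all 13937 genes tested passed, 18.5% in that direction and 7.05% in the other. *Il24* reached 1 FPKM only in *Socs3* cKO at 10 weeks, so the filter selected it through that group, and the count of 3 carries that selection. The interaction was 3.95 for *Il24* (SE 0.67, adjusted p = 0.00071), but 1.66 with a pseudocount of 1 and 5.79 with one of 0.01, where it did not pass (adjusted p = 0.0129). It was 2.63 for *Il17ra* (SE 0.58, adjusted p = 0.00324) and 2.25 for *Il4ra* (SE 0.48, adjusted p = 0.00261). That of *Il22ra1* was 2.79 (SE 0.88, adjusted p = 0.0194) and did not pass, but it passed without wild type replicate 2 at 10 weeks (3.46, adjusted p = 0.00554). That of *Il17ra* did not pass without wild type replicate 3 at 10 weeks (2.42, adjusted p = 0.0122), and it was 1.77 with quantile normalization (adjusted p = 0.00203) and 1.21 with the trend of each library with gene length and GC content removed (adjusted p = 0.00286). That of *Il4ra* fell to 0.59 (adjusted p = 0.214) once that trend was removed. The median interaction over all genes tested was 0.55.

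**Figure D2:**
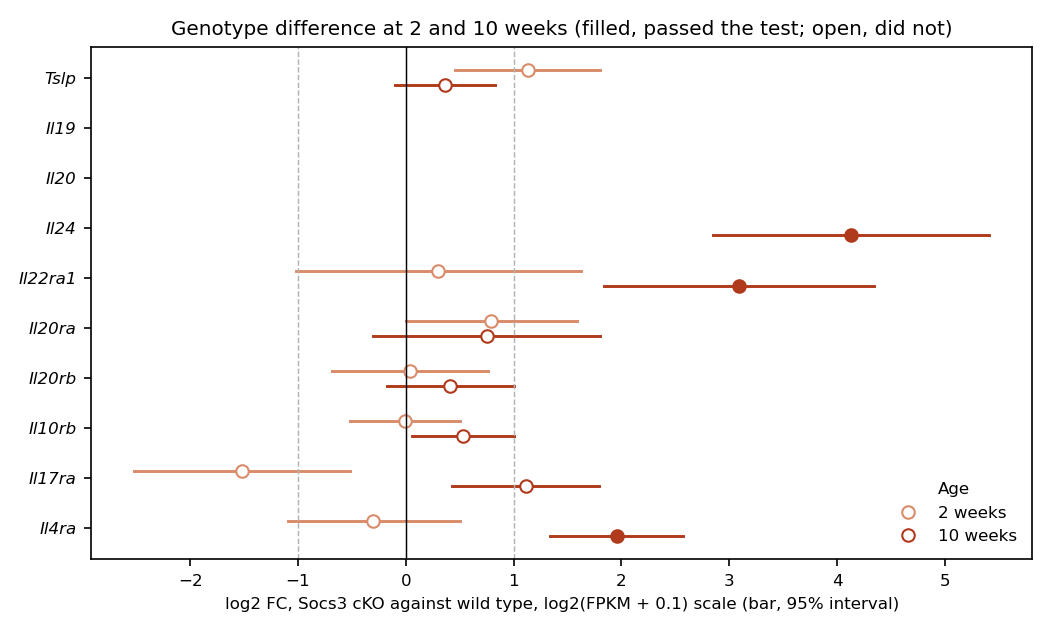
log2(FC) of *Socs3* cKO against the wild type on the log2(FPKM + 0.1) scale for each gene at 2 weeks (light) and 10 weeks (dark), with 95% intervals from limma; filled points passed the test and open points did not. *Il24* (4.13), *Il22ra1* (3.09) and *Il4ra* (1.96) are filled at 10 weeks, none is filled at 2 weeks, and *Il19* and *Il20* have no point because they were under the expression filter, as was *Il24* at 2 weeks.

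*Tslp*, on chromosome 18, encodes the cytokine that starts type 2 responses from the epithelium. At 2 weeks the wild type mice had 1.19, 2.26, 2.71 and 2.31 FPKM of *Tslp* and the *Socs3* cKO mice 6.70, 3.63, 4.41 and 4.03. The groups did not overlap, and the highest mouse was *Socs3* cKO replicate 1, the library that stood apart. Its log2(FC) was 1.13 (SE 0.29, adjusted p = 0.0165), and 0.95 (adjusted p = 0.0127) without that replicate. The exact permutation test gave p = 0.0286, the smallest that 4 mice against 4 allow. *Tslp* has a GC content of 39.5%, and the 20% of genes with the lowest GC content (33.1% to 44.7%) had a median log2(FC) of 0.48 at 2 weeks, against -1.08 for the 20% with the highest. With the length and GC trend removed, the log2(FC) of *Tslp* turned to -0.44 (adjusted p = 0.196, with adjusted p from 0.00292 to 0.196 over all alternatives), so its direction at 2 weeks depended on this choice. In bulk samples such as these, a change in the number of cells of a type and a change in RNA per cell cannot be told apart.

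At 10 weeks the wild type mice had 6.46, 4.78 and 4.16 FPKM of *Tslp* and the *Socs3* cKO mice 6.44, 7.5, 6.41 and 5.86. The ranges overlapped, through wild type replicate 1. Its log2(FC) was 0.36 (95% interval -0.10 to 0.83, adjusted p = 0.19), and it was -0.06 with quantile normalization. In the wild type *Tslp* rose with age, from 2.12 ± 0.649 (SD, n = 4) to 5.13 ± 1.19 (SD, n = 3) FPKM, a log2(FC) of 1.27 (SE 0.27, adjusted p = 0.00193 in limma). This call was lost without wild type replicate 1 at 10 weeks (1.10, adjusted p = 0.0144), with a pseudocount of 1 (0.99) and with the length and GC trend removed (0.27, adjusted p = 0.456). In *Socs3* cKO the change with age was 0.51 (SE 0.25, adjusted p = 0.214).

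*Il24* encodes an IL-20 group cytokine of activated keratinocytes and immune cells. It lies on the minus strand of chromosome 1 of mm9 (132778651 to 132784031, 6 exons), next to *Il20* (132803769 to 132807873) and *Il19* (132829235 to 132836650), at gaps of 19737 and 21361 bases, and the other side of *Il19* is taken by *Il10*. *Il24* was 0 FPKM in all 4 wild type mice at 2 weeks, and the *Socs3* cKO mice had 0, 0, 0.0653 and 0. At 10 weeks the wild type mice had 0.133, 0 and 0 FPKM and the *Socs3* cKO mice 1.66, 0.98, 5.75 and 2.53. Every *Socs3* cKO mouse at 10 weeks was above every other mouse of the study, with a spread of its own from replicate 2 to replicate 3.

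By estimate, 179 reads of *Il24* came from the 4 *Socs3* cKO mice at 10 weeks and 2 from the 3 wild type mice, a ratio of 60.8 after scaling to depth, with an exact 95% interval from 16.6 to 506 that covers counting error only. At 2 weeks the sums were 1 read in *Socs3* cKO and 0 in the wild type, and 3 reads, the limit that a count of 0 allows, would be 0.168 to 0.241 FPKM in 1 mouse. Only 1 of the 6 values of *Il24* above 0 lay within 0.1 of a whole read, so its read numbers are approximate. *Il24* had a log2(FC) of 4.13 at 10 weeks (SE 0.57, adjusted p = 0.00102), with rank 56 from the top of all genes tested, but its size rests on the pseudocount, with 1.68 for a pseudocount of 1 and 6.51 for 0.01. The exact permutation test gave p = 0.0571, the smallest that 3 mice against 4 allow. Leaving out single mice gave 3.93 to 4.54, and without *Socs3* cKO replicate 1, 3 or 4 it was under the filter and not tested.

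*Il19*, whose cytokine signals through IL-20RA with IL-20RB alone, stood at 0, 0, 0.0717 and 0 FPKM among the wild type mice and at 0, 0.148, 0.0727 and 0.199 among the *Socs3* cKO mice at 2 weeks. At 10 weeks these values were 0.0741, 1.12 and 0.225 for the wild type and 0.444, 0.409, 3.39 and 0.412 for *Socs3* cKO. The ranges overlapped at both ages, and *Socs3* cKO replicate 3, which also had the highest *Il24*, stood above all other mice. Estimated reads at 10 weeks were 63 in *Socs3* cKO and 17 in the wild type, a ratio of 2.52 (exact 95% interval 1.45 to 4.59, counting error only), of which replicate 3 alone gave 45. The exact permutation test over mice gave p = 0.143 for the younger and p = 0.4 for the older mice. *Il20* was at 0 to 0.526 FPKM in every mouse, with, by estimate, 5 reads from the wild type and 11 from *Socs3* cKO at 2 weeks, and 7 and 4 at 10 weeks. At this depth no difference in *Il20* was detectable (exact permutation tests, p = 0.657 for the younger and p = 0.4 for the older mice).

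**Figure D3:**
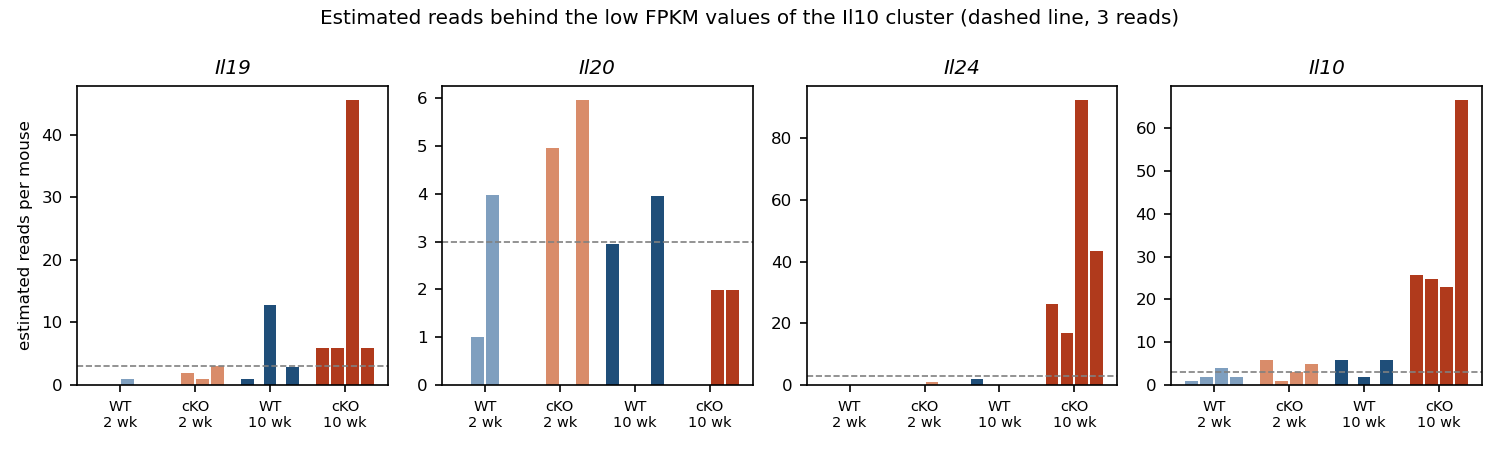
Estimated reads of *Il19*, *Il20*, *Il24* and *Il10* in each mouse (bars, mice in the order of their replicate numbers; dashed line, 3 reads; the scales differ between panels). *Il24* and *Il10* have bars above the line in all 4 *Socs3* cKO mice at 10 weeks, while *Il20* has at most 6 reads in any mouse.

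Of the neighbours on chromosome 1, *Il10*, an anti-inflammatory cytokine of immune cells on the opposite strand, was also called higher at 10 weeks (log2(FC) 2.35, SE 0.42, adjusted p = 0.00324), although it too reached 1 FPKM only in *Socs3* cKO and so had to differ. Its mean rose from 0.264 ± 0.118 (SD, n = 3) to 1.84 ± 1.05 (SD, n = 4) FPKM. By estimate, *Il10* had 141 reads in *Socs3* cKO and 14 in the wild type (ratio 6.84, exact 95% interval 3.94 to 12.8, counting error only). *Mapkapk2*, a kinase gene beyond *Il10*, had a log2(FC) of 0.32 (SE 0.15, adjusted p = 0.116), and *Fcamr*, an antibody receptor gene on the side of *Il24*, one of 1.29 (SE 0.42, adjusted p = 0.0357). Between *Fcamr* and *Il24* lie *Pigr*, the polymeric immunoglobulin receptor gene, and *Faim3*, which were under the filter, with group means of at most 0.347 and 0.252 FPKM. The libraries carry no strand information that was used here, but these genes do not overlap in mm9.

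*Il22ra1* encodes the chain that IL-22, IL-20 and IL-24 share, and it lies on the plus strand of chromosome 4 of mm9 (135284087 to 135308055, 7 exons). At 2 weeks the wild type mice had 5.72, 5.46, 2.63 and 3.94 FPKM and the *Socs3* cKO mice 1.39, 9.32, 6.64 and 8.57. The ranges overlapped through replicate 1 of *Socs3* cKO, the library that stood apart, whose value was the lowest of the 8. For *Il22ra1* the log2(FC) was 0.30 (SE 0.58, adjusted p = 0.674), and 0.91 (SE 0.27, adjusted p = 0.0169) without that mouse. With every mouse and the length and GC trend removed it was 1.13 (adjusted p = 0.0207 in limma).

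At 10 weeks the wild type mice had 0.393, 1.24 and 0.119 FPKM of *Il22ra1* and the *Socs3* cKO mice 4.29, 5.43, 6.38 and 2.45. The groups did not overlap, and the separation came with a fall in the wild type, from 4.44 ± 1.44 (SD, n = 4) at 2 weeks to 0.584 ± 0.584 (SD, n = 3), while *Socs3* cKO had 6.48 ± 3.58 and 4.64 ± 1.69 (SD, n = 4 each). The log2(FC) between genotypes at 10 weeks was 3.09 (SE 0.56, adjusted p = 0.00327 in limma), and 1.84 (adjusted p = 0.00172) with a pseudocount of 1. It lost its call without wild type replicate 1 (3.04, adjusted p = 0.0141) or replicate 3 (2.46, adjusted p = 0.0128), which leave 2 wild type mice. The change with age was -3.05 (SE 0.65, adjusted p = 0.00175) in the wild type, and it lost its call without wild type replicate 3 at 10 weeks (-2.42, adjusted p = 0.0148). In *Socs3* cKO it was -0.26 (95% interval -1.54 to 1.02, adjusted p = 0.785).

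*Il20ra* encodes the other chain that pairs with IL-20RB, and it lies on chromosome 10 of mm9 (19432393 to 19479859, 7 exons). The wild type mice had 1.79, 1.86, 1.99 and 1.71 FPKM at 2 weeks against 1.67, 5.58, 2.62 and 4.5 for *Socs3* cKO, and 4.28, 5.52 and 1.27 against 5.08, 6.49, 7.52 and 3.26 at 10 weeks. Only replicate 1 of *Socs3* cKO overlapped the wild type at 2 weeks, and the ranges overlapped at 10 weeks. Its log2(FC) was 0.79 (SE 0.35, adjusted p = 0.0873) at 2 weeks and 0.75 (SE 0.47, adjusted p = 0.227) at 10 weeks. The value at 2 weeks was 1.29 with quantile normalization (adjusted p = 0.00168 in limma). It was 0.51 with the length and GC trend removed (adjusted p = 0.244).

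The balance of these receptor chains was also compared within each mouse. At 2 weeks *Il22ra1* made up 56.8% to 76.1% of the summed FPKM of *Il22ra1* and *Il20ra* for the wild type against 45.4% to 71.7% for *Socs3* cKO. The 45.4% was *Socs3* cKO replicate 1, the library that stood apart, and the other mice of that group had 62.6% to 71.7%, within the wild type range. At 10 weeks its share was 8.41% to 18.3% for the wild type against 42.9% to 45.9% for *Socs3* cKO. At that age the summed level of the chains ran from 1.39 to 6.76 FPKM for the wild type and from 5.70 to 13.9 for *Socs3* cKO, which overlap, while the proportions do not. *Il20rb*, the chain both receptors need, stood 25.1 to 31.0 times above *Il20ra* in 2-week wild type mice and 13.4 to 20.9 times above it in *Socs3* cKO mice of that age, and at 10 weeks 8.18 to 20.3 and 7.07 to 9.66 times. These proportions were not tested. The GC content is 56.2% for *Il22ra1* and 47.3% for *Il20ra*, and the part of GC content in their proportion was not tested either.

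**Figure D4:**
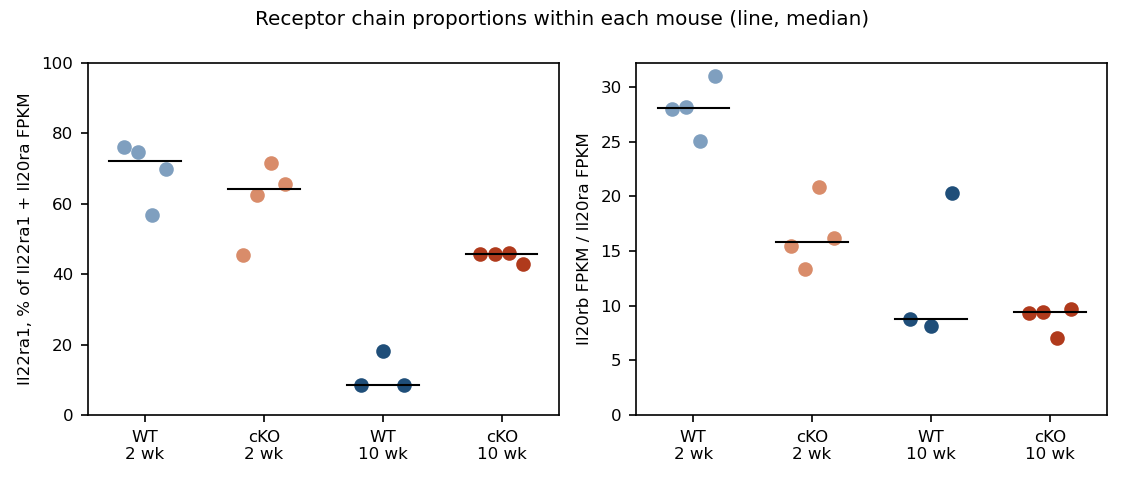
Left, *Il22ra1* as a percent of the summed FPKM of *Il22ra1* and *Il20ra* in each mouse; right, FPKM of *Il20rb* divided by that of *Il20ra* (points, mice; line, median). On the left the wild type at 10 weeks lies at 8.41% to 18.3%, below every other mouse, and on the right the wild type at 2 weeks lies at 25.1 to 31.0, above every other mouse.

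*Il20rb* (chromosome 9, 100358138 to 100387207) and *Il10rb* (chromosome 16, 91406409 to 91426074), the partner chains, were not called at either age. *Il20rb* had a log2(FC) of 0.04 (95% interval -0.68 to 0.76, adjusted p = 0.926) at 2 weeks, 0.38 (adjusted p = 0.022) without *Socs3* cKO replicate 1, and 0.41 (95% interval -0.17 to 1.0, adjusted p = 0.235) at 10 weeks. *Il10rb*, which serves the receptors for IL-10, IL-22 and type III interferons, had 13.0, 18.7 and 10.0 FPKM in wild type mice at 10 weeks against 19.9, 19.2, 19.1 and 19.6 in *Socs3* cKO mice. Its groups were separated only by the gap from 18.7 to 19.1, and its log2(FC) of 0.53 (SE 0.21, adjusted p = 0.0732) was 0.27 after median-of-ratios scaling and 0.13 with the length and GC trend removed. The younger mice gave -0.01 (SE 0.22, adjusted p = 0.976), and 0.22 (adjusted p = 0.0839) without *Socs3* cKO replicate 1. *Socs3* cKO mice ranged from 10.8 to 22.8 FPKM of *Il10rb* at 2 weeks and from 19.1 to 19.9 at 10 weeks.

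The promoters of *Il22ra1*, *Il20ra* and *Il4ra* are shown because *Il22ra1* and *Il4ra* were up-regulated at 10 weeks and *Il20ra*, which shares the partner chain of *Il22ra1*, was not called. The RefSeq table of GRCm38.p6 held a promoter for 6 of the 10 genes (*Il19*, *Il20*, *Il22ra1*, *Il20ra*, *Il20rb* and *Il4ra*). Each sequence gives the 250 bases before the start, 5′ to 3′ on the plus strand, at chr4:135727909-135728158, chr10:19712337-19712586 and chr7:125552021-125552270 in that order, and capitals mark matches to the motifs searched.
Il22ra1: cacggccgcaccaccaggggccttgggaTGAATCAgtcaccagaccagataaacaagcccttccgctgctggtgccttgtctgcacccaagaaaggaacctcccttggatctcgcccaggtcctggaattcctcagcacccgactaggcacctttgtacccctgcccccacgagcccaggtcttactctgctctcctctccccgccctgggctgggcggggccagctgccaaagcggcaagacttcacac
Il20ra: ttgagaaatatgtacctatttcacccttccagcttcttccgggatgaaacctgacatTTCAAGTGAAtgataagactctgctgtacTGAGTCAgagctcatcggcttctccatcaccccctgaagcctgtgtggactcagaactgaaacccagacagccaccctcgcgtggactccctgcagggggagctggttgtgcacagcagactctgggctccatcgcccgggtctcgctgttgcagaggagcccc
Il4ra: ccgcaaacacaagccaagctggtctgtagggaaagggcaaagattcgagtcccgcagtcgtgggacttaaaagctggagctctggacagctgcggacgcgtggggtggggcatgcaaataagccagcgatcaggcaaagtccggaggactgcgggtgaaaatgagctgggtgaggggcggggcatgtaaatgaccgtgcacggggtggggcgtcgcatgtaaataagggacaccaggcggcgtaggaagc

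The motifs were 2 spacings of the STAT site, TTC and GAA with 3 or with 4 bases between them, and the AP-1 site TGANTCA, each of which reads the same on both strands. *Il22ra1* held an AP-1 match 222 to 216 bases before the start. *Il20ra* held a STAT match (193 to 184 bases before) and an AP-1 match (164 to 158 bases before). No letters of either motif were found in the *Il4ra* window. Among the 27025 promoters of the table, windows of the same length held the motifs in 7.18%, 5.86% and 6.87% of cases, in the order named. *Il19* held a TTCCCAGAA match and *Il20* a TTCTTAGGAA match. These are matches of letters in a window, and the files hold no measure of binding.

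*Il17ra*, the receptor chain shared by IL-17A, IL-17F and IL-17C (chromosome 6, 120413215 to 120433745, 13 exons), was not called at either age, while its interaction of genotype and age passed the test. At 2 weeks the wild type mice had 8.40, 8.15, 8.48 and 7.76 FPKM and the *Socs3* cKO mice 1.04, 6.01, 2.85 and 3.30. The groups did not overlap, and the lowest mouse was again *Socs3* cKO replicate 1. For *Il17ra* the log2(FC) was -1.52 (SE 0.44, adjusted p = 0.0235) and -1.07 (SE 0.23, adjusted p = 0.00401) without replicate 1, while it was -0.47 with the length and GC trend removed (adjusted p from 0.00401 to 0.0584 over all alternatives). The exact permutation test gave p = 0.0286, the smallest possible. The GC content of *Il17ra* is 55.2%, among the 20% of genes (52.6% to 56.3%) whose median log2(FC) at 2 weeks was -0.63.

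At 10 weeks the wild type mice had 3.74, 5.45 and 2.86 FPKM of *Il17ra* and the *Socs3* cKO mice 9.17, 9.07, 11.8 and 5.34. The ranges overlapped only between wild type replicate 2 and *Socs3* cKO replicate 4. The log2(FC) was 1.11 (SE 0.30, adjusted p = 0.0186), and *Il17ra* was called without wild type replicate 2 (1.35, adjusted p = 0.00933) or without *Socs3* cKO replicate 4 (1.33, adjusted p = 0.00613). It was 0.70 with quantile normalization (adjusted p = 0.0389) and 0.69 with the length and GC trend removed (adjusted p = 0.0269). With age, *Il17ra* changed by -1.06 (SE 0.43, adjusted p = 0.0507) in the wild type and by 1.57 (SE 0.40, adjusted p = 0.0218) in *Socs3* cKO. The first was called without *Socs3* cKO replicate 1 at 2 weeks (-1.06, adjusted p = 0.00563) but was -0.02 (adjusted p = 0.94) with the length and GC trend removed, and the second without *Socs3* cKO replicate 2 at 2 weeks (1.93, adjusted p = 0.0033).

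*Il4ra*, the chain shared by the IL-4 and IL-13 receptors (chromosome 7, 132695785 to 132722986, 12 exons), did not separate the genotypes at 2 weeks. The wild type mice had 6.12, 6.62, 6.53 and 6.98 FPKM and the *Socs3* cKO mice 2.35, 6.28, 7.01 and 7.65, with a log2(FC) of -0.30 (SE 0.35, adjusted p = 0.486). Without replicate 1 of *Socs3* cKO, the lowest of the 8, it was 0.08. With the length and GC trend removed it was 0.89 (adjusted p = 0.00281, with adjusted p from 0.00281 to 0.776 over all alternatives).

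At 10 weeks the wild type mice had 4.73, 4.38 and 2.57 FPKM of *Il4ra* and the *Socs3* cKO mice 13.1, 10.9, 19.3 and 17.9. The lowest *Socs3* cKO mouse was above the highest of all 11 other mice. For *Il4ra* the log2(FC) was 1.96 (SE 0.28, adjusted p = 0.00115), and it kept its call in each of the 16 alternatives, from 1.44 to 2.12. With age, *Il4ra* changed by -0.78 (SE 0.35, adjusted p = 0.0752) in the wild type and by 1.47 (SE 0.32, adjusted p = 0.0106) in *Socs3* cKO. The latter was called without wild type replicate 3 at 10 weeks (1.47, adjusted p = 0.00948) and without *Socs3* cKO replicate 1 at 2 weeks (1.09, adjusted p = 0.00616).

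Between 2 and 10 weeks, the wild type raised *Tslp* and lowered *Il22ra1*, and *Socs3* cKO raised *Il24*. In the wild type 2 of the 8 genes tested were called, where 25.5% of all genes tested were called, 6.18% higher and 19.4% lower, and the ages did not overlap for 5 of 8 against 66.8% of all genes. The median of the 8 was -0.46 against -0.44 over all genes. In *Socs3* cKO 1 of 8 was called, where 3.54% of all genes were called, 2.01% higher and 1.53% lower, the ages did not overlap for 2 of 8 against 14.5% of all genes, and the median was 0.60 against 0.11. The call in *Socs3* cKO was *Il24*, with a log2(FC) with age of 4.36 (SE 0.45, adjusted p = 3.39e-05), and the filter selected it through the 10-week *Socs3* cKO mice. Since each of these groups also enters a comparison between genotypes, the age and genotype results are not independent of each other.

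Genes that act with the 10 were followed in 6 lists, whose counts stand against 7.24% of all genes called higher and 7.19% lower at 2 weeks, and 12.5% higher and 2.43% lower at 10 weeks. Of the list genes called, 2 of 10 at 2 weeks (*Il7* and *S100a7a*) and 5 of 19 at 10 weeks (*Il10*, *Il1rl1*, *Il17a*, *Cxcl1* and *Ccl20*) passed the filter only through the group where they were higher. *Il7*, *S100a7a*, *Il10*, *Il17a* and *Cxcl1* had no mouse at 1 FPKM or more in the lower group, so among the genes tested they had to differ. *Il1rl1* had 1 and *Ccl20* had 2 of the 3 wild type mice at that level, so for them the filter only favoured a difference. Of the other IL-20 group ligands, decoys and partner chains, 3 of 8 were tested at 2 weeks and 4 at 10 weeks. At 2 weeks *Il22ra2*, which encodes a soluble decoy that binds IL-22, rose from 2.94 ± 0.401 to 15.8 ± 0.587 (SD, n = 4 each) FPKM (log2(FC) 2.40, SE 0.15, adjusted p = 4.22e-05), and at 10 weeks it had a log2(FC) of 1.23 (SE 0.36, adjusted p = 0.0246). At 10 weeks *Il10* and its receptor chain *Il10ra* (1.17, SE 0.19, adjusted p = 0.00185) were up-regulated. *Il22*, the ligand of *Il22ra1*, had by estimate 0 reads at 2 weeks, and at 10 weeks 1 read from the wild type and 2 from *Socs3* cKO.

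Of 15 genes of the TSLP and type 2 axis, 3 of the 9 tested rose at 2 weeks and 3 of the 10 tested rose at 10 weeks, with none lower, against 7.24% and 12.5% of all genes called higher. *Crlf2*, the specific chain of the TSLP receptor, had log2(FC) of -0.91 (SE 0.62) and 0.09 (SE 0.27) at 2 and 10 weeks (adjusted p = 0.236 and 0.808). *Il7r*, its partner, had 0.83 (SE 0.30, adjusted p = 0.0468) and 1.14 (SE 0.29, adjusted p = 0.0143). *Il13ra1*, which pairs with IL-4RA, rose at both ages, by 1.04 (SE 0.12, adjusted p = 0.000452) and 1.30 (SE 0.25, adjusted p = 0.004). The alarmin *Il33* (3.21) and the lymphoid cytokine *Il7* (1.33) were called higher at 2 weeks and not at 10 weeks, and the interaction passed for *Il33* (-2.48, adjusted p = 0.00109) and not for *Il7* (-0.94, adjusted p = 0.0692). *Il1rl1*, the IL-33 receptor (1.64), and *Osmr*, the oncostatin M receptor chain (1.49), rose at 10 weeks.

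In the IL-17 axis (13 genes), 0 of the 7 tested by limma were called at 2 weeks, with 2 at an unadjusted p below 0.05. At 10 weeks 2 of the 8 tested rose, where 12.5% of all genes did, the cytokine *Il17a* (log2(FC) 3.75, SE 0.47, adjusted p = 0.000627) and the adaptor *Traf6* (1.29, SE 0.29, adjusted p = 0.00754). *Il17a* had about 111 reads in *Socs3* cKO and 1 in the wild type at 10 weeks by estimate. *Il17rc*, the partner of IL-17RA, had log2(FC) of 0.03 and 0.11 at 2 and 10 weeks (adjusted p = 0.956 and 0.605). Of 9 JAK and STAT genes, all tested, 0 were called by limma at 2 weeks, with 5 at an unadjusted p below 0.05, and *Jak1* (1.09), *Jak2* (1.22) and *Stat3* (1.04) rose at 10 weeks.

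Among 15 genes known to respond to IL-17 or IL-22, 13 were tested at 2 weeks. The antimicrobial genes *S100a8* (log2(FC) 4.77), *S100a9* (4.60), *Lcn2* (2.96) and *Defb14* (5.09) rose, and *S100a7a* (-5.36) and the keratin *Krt6a* (-1.08) fell. At 10 weeks 7 of the 14 tested rose, where 12.5% of all genes did, which were the chemokines *Cxcl1* (7.93) and *Ccl20* (5.15), the regulators *Nfkbiz* (3.67), *Zc3h12a* (2.54) and *Socs3* (3.54), and the keratins of activated epidermis *Krt16* (2.35) and *Krt6a* (2.90). This count includes *Socs3*, the targeted gene, and *Cxcl1* and *Ccl20*, which passed the filter only through *Socs3* cKO. Of 12 genes that respond to IL-4, 10 were tested at each age, 0 were called by limma at 2 weeks, with 7 at an unadjusted p below 0.05, and the chemokine *Ccl11* (2.06, SE 0.25, adjusted p = 0.000565) and the STAT5 target *Cish* (1.99, SE 0.28, adjusted p = 0.00102) rose at 10 weeks. Without *Socs3* cKO replicate 1, a comparison added after the data were seen, the counts at 2 weeks were 1 of 3, 3 of 9, 0 of 7, 0 of 9, 4 of 12 and 0 of 10 higher in the order given (limma, with 2, 6, 4, 6, 8 and 7 at an unadjusted p below 0.05), where 6.89% of all genes were called higher and 13.0% lower. Lower without that mouse were *S100a7a*, the kinases *Jak3* (-1.32) and *Tyk2* (-1.11), and *Cish* (-1.07), *Retnla* (-1.21) and *Socs1* (-1.01) of the IL-4 list, while *Krt6a* (-0.92) was no longer called. The median log2(FC) of the lists with every mouse included was, in the same order, 0.06, 0.94, -0.63, -0.92, 0.67 and 0.06 at 2 weeks, against -0.21 over all genes tested. It was 1.20, 0.86, 0.34, 0.90, 2.44 and 0.59 at 10 weeks, against 0.31. Of the 71 genes of these lists in the files, 2 (*Il31* and *Ccl26*) were at 0 in every mouse.

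**Figure D5:**
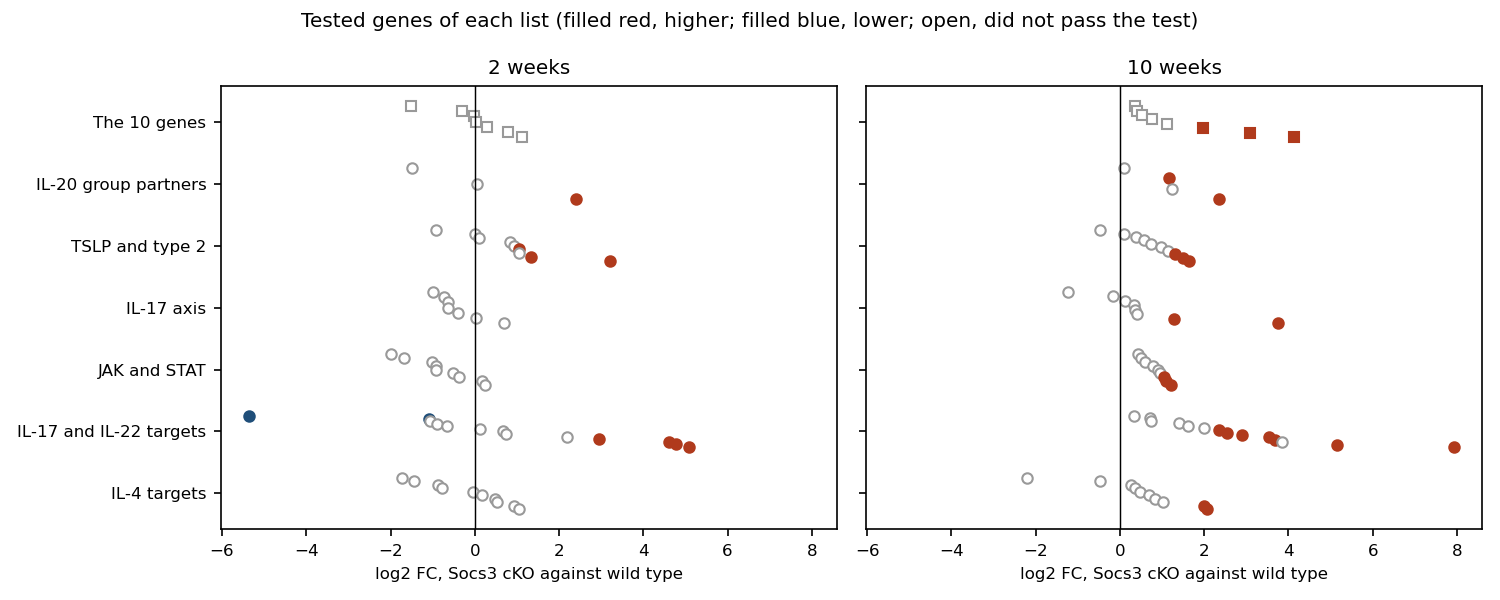
log2(FC) of *Socs3* cKO against the wild type at 2 weeks (left) and 10 weeks (right) for each tested gene of the 10 and of the 6 lists (squares, the 10 genes; circles, list genes; filled red, higher; filled blue, lower; open, did not pass the test). At 10 weeks every filled symbol lies to the right of 0, up to *Cxcl1* at 7.93, and at 2 weeks *S100a7a* lies farthest to the left at -5.36.

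Markers of other cell types moved with these groups. Their counts stand against 12.5% of all genes called higher and 2.43% lower at 10 weeks, and 7.24% higher and 7.19% lower at 2 weeks. At 10 weeks 5 of 6 macrophage markers were called higher, and their summed FPKM was 166 to 205 in *Socs3* cKO against 61.9 to 92.0 in the wild type. Langerhans and dendritic cell markers summed to 717 to 792 against 396 to 462 (3 of 5 called higher), and endothelial markers to 37.4 to 57.2 against 19.6 to 22.8 (3 of 5). T cell markers summed to 41.2 to 59.9 against 37.3 to 43.3 (1 of the 5 tested called), and keratinocyte markers to 8020 to 11900 against 6190 to 10400 (1 of 7). Neutrophil markers summed to 3.46 to 9.34 against 7.98 to 9.84, with none of the 3 tested called by limma and 1 at an unadjusted p below 0.05. No marker of these lists was at 0 in either group at 10 weeks. At 2 weeks all 7 hair follicle markers were called lower, with sums of 6.95 to 41.4 in *Socs3* cKO, and skeletal muscle markers summed to 1050 to 1590 against 444 to 670 (3 of 5 called higher). At that age the sums also did not overlap for fibroblast markers (3690 to 5430 in *Socs3* cKO against 8460 to 10100, 1 of 6 called higher and 2 lower), T cell markers (33.6 to 52.6 against 19.5 to 28.9, 2 of 5 higher and 1 lower), mast cell markers (555 to 1110 against 462 to 493, 1 of 6 higher), macrophage markers (106 to 131 against 85.8 to 96.7) and adipocyte markers (362 to 694 against 216 to 252). By limma 0 of the 6 macrophage and 0 of the 5 adipocyte markers were called at 2 weeks, with 3 and 2 at an unadjusted p below 0.05. Single genes did not overlap in 56.1% of cases at that age, and the sums are given with every mouse. Without *Socs3* cKO replicate 1, 2 of 5 adipocyte markers and 1 of 5 T cell markers were called higher at 2 weeks. The higher fibroblast marker, *Dcn* (0.99), was then no longer called, and the other counts given for 2 weeks were unchanged. The part of these cells in the differences of *Tslp*, *Il24*, *Il22ra1*, *Il4ra* and *Il17ra* was not tested.

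The genes whose pattern was most like that of each gene were found by Pearson's r of log2(FPKM + 0.1) over the 15 mice, among 13936 genes over the filter. Library batch and group cannot be told apart, and the GC shift differed between genotypes, so these r describe the libraries and carry no p. *Il24* was closest to *Ptx3* (r = 0.977), *Il1b* (0.975) and *Ptgs2* (0.971), which encode a pentraxin, interleukin-1β and cyclooxygenase-2. *Il4ra* was closest to *Maff* (0.963), *Mcl1* (0.951) and *Rnf217* (0.948), and *Il17ra* to *Spry2* (0.988) and *Tns4* (0.982). *Il22ra1* was closest to *Usp4* (0.975), *Ubash3b* (0.974) and *March8* (0.973), and its r with *Il20rb* and *Il10rb* was 0.81 each, against 0.35 with *Il20ra*. *Tslp* was closest to *Gm5127* (0.93), and its r with the other 7 genes compared ran from -0.28 to 0.58. The closest genes of *Il20ra*, *Il20rb* and *Il10rb* were *Clca5* (0.95), *Eps8l1* (0.963) and *Ust* (0.953).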

How the data were processed

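The authors aligned single reads of 50 bases (TopHat2 2.1.0, mm9) and deposited 1 FPKM value per gene and mouse, computed with Cufflinks per the labels. FPKM are not counts, so no count test was run. The 10 genes and all lists were chosen with earlier results of these data known. log2(FPKM + 0.1) was compared with limma 3.58.1 in R 4.3.3 (trend in the prior variance, 2-sided, Benjamini-Hochberg adjustment over all genes tested), between genotypes within each age, and over all 4 groups for the interaction and for age. The filter and call thresholds are those given with the results. Exact permutation tests were 2-sided.

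Reads were estimated from the steps between low FPKM values, with the transcript length reduced by 200 bases, and rounded. Read ratios have exact 95% intervals. GENCODE gene models on mm9, matched by symbol for 97.3% of the genes, gave positions, and RefSeq gave promoters. The text names all 10 genes, *Socs3*, the list genes called at either age with the receptor partners and ligands beside them, genes beside *Il24*, and up to 3 genes most like each gene. The partners, ligands and neighbours that were not called were named after their values were seen.

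The alternatives were pseudocounts of 1 and 0.01, no filter, median-of-ratios scaling, quantile normalization, constant prior variance, removal of length and GC trends, a block for the replicate number, a joint fit of the 4 groups, and leaving out each mouse. The fits were tested on simulated data.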

Additional observations from a re-analysis of the deposited data

Results flagged for a closer look

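*Il24*, *Il17ra* and *Il4ra* were flagged because the genotype difference itself differed between the ages, with interactions of 3.95, 2.63 and 2.25 on the log2 scale. Of all genes tested, 25.6% passed this interaction test, 18.5% in the same direction. *Il24* was tested only through *Socs3* cKO at 10 weeks. With the length and GC trend removed, the interaction was 1.21 for *Il17ra* and 0.59 for *Il4ra* (adjusted p = 0.214 in limma for *Il4ra*). For *Il17ra* the *Socs3* cKO mice lay below the wild type at 2 weeks and mostly above it at 10 weeks. Among 29 sets of 4 mice of 1 group, 1 mouse lay far from the other 3 in 3 sets, and for normally distributed values chance gives about 1 in 20 sets. *Il19* was 3.39 FPKM in *Socs3* cKO replicate 3 at 10 weeks, where the others had 0.409 to 0.444. This mouse also had the highest *Il24* of all, at 5.75 FPKM. *Il19* was 0.0717 FPKM in wild type replicate 3 at 2 weeks and *Il24* was 0.0653 FPKM in *Socs3* cKO replicate 3 at 2 weeks, each about 1 estimated read against 0 in the other 3 mice. Sets of this kind are flagged whenever 1 mouse has a read, so that chance rate does not apply to them.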

How the results depend on the processing

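At 10 weeks, 3 genes were called (2 to 4 with each mouse left out in turn), and *Il4ra* kept its call in every alternative. *Il24* kept its call in the 13 alternatives that tested it. Wherever the filter was used it had to differ, so those calls carry that selection. At 2 weeks 1951 of 13524 genes were called, against 2695 with quantile normalization and 3300 of 13937 with all 4 groups in one fit. Quantile normalization called *Tslp* and *Il20ra* of the 10 genes, and the joint fit *Tslp* and *Il17ra*. The number called of the 10 genes, 0, thus became 2 in both (0 to 2 with a mouse left out). In the wild type it fell from 2 to 1 with age with a pseudocount of 1 and with length and GC trends removed (1 to 3), and in *Socs3* cKO it went from 1 to 2 with a pseudocount of 1 and to 3 with median-of-ratios scaling, quantile normalization or the trends removed (0 to 2, with 0 where *Il24* was under the filter without *Socs3* cKO replicate 1, 3 or 4 at 10 weeks). The values that turned sign at 2 weeks were *Il10rb* at 0.20 with median-of-ratios scaling, *Il20rb* at -0.07, *Il10rb* at 0.22 and *Il4ra* at 0.15 with quantile normalization, and *Tslp* at -0.44, *Il10rb* at 0.15 and *Il4ra* at 0.89 with the trends removed. At 10 weeks *Tslp* was -0.06 with quantile normalization. The interaction was -0.09 for *Il20rb* with median-of-ratios scaling, -0.06 for *Il10rb* with quantile normalization, and 0.82 for *Tslp*, -0.43 for *Il20rb* and -0.01 for *Il10rb* with the trends removed. With age in the wild type, *Il10rb* was 0.02 after median-of-ratios scaling, 0.10 after quantile normalization, and with the trends removed *Il24* was -0.17, *Il20rb* 0.12, *Il10rb* 0.12 and *Il4ra* 0.39. With a mouse left out, the sign of *Il10rb* (-0.14 to 0.22), *Il20rb* (-0.13 to 0.38) and *Il4ra* (-0.47 to 0.08) varied at 2 weeks, as did the interaction of *Il20ra* (-0.66 to 0.36) and, with age in *Socs3* cKO, *Il10rb* (-0.06 to 0.30), *Il22ra1* (-0.87 to 0.01) and *Il20rb* (-0.51 to 0.02). The cause was not tested. The interaction of *Il24* had an adjusted p of 0.0129 with a pseudocount of 0.01 (0.000139 to 0.0129 over all alternatives). The scalings moved the median of all genes from -0.21 to between -0.01 and 0.05 at 2 weeks and from 0.31 to between -0.02 and 0.06 at 10 weeks. Replicate numbers do not pair mice: deviations of same-numbered mice from their group means correlated with r from -0.04 to 0.14 across genes at 2 weeks and -0.21 to 0.07 at 10 weeks. With the replicate number as a block, 0 genes were called at 2 weeks and 4 at 10 weeks (*Il17ra* added, 1.33, adjusted p = 0.00958), and over all genes 751 in place of 1951 at 2 weeks and 1899 in place of 1957 at 10 weeks. Depth limits *Il19* and *Il20*, whose values rest on a few reads.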
